A study of Homo sapiens with 8 samples.

Results

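CpG-rich accessible regions that lie far from any annotated promoter were drawn from ATAC-seq peak lists of HEK293T, an established human line of embryonic kidney origin with SV40 T antigen. ATAC-seq marks open DNA by the cuts of the transposase Tn5. The 8 peak lists were joined into regions wherever peaks overlapped or touched, and those that met 3 conditions were kept. The midpoint of such a region lay more than 2000 bp from every start site (TSS) of a GENCODE protein-coding or long noncoding RNA transcript. The hg38 sequence of 501 bp around the midpoint held at least 55% G and C. In the same window the observed number of CpG dinucleotides was at least 0.6 of the number that the C and G content would give by chance (the CpG observed/expected ratio). Of 96872 merged regions, 1499 met the rule, which used sequence and position and no accessibility value. Regions are named below by the protein-coding gene that holds the midpoint or, failing that, by the gene of the nearest protein-coding TSS. The name gives a position and does not show that the region acts on that gene.

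The study made 4 libraries from cells whose genotype is given as H2A-lentivector and 4 from cells with an H2A(E92K)-lentivector, called H2A and E92K here. E92K exchanges a glutamate of the nucleosome's acidic patch, a surface to which many chromatin proteins bind, for a lysine. Both groups came from the same cell line, and their treatment is given as none. The labels mention transfection in one place and a lentivector in another, and harvested RNA in one and genomic DNA in another, so how the cells and libraries were made is uncertain. The promoter of the vector, the level of the added histone beside the cells' own H2A, and whether replicates were separate cultures or clones are not given in the labels, so each p-value reflects the spread between these libraries alone, which may be technical. The lists held 55527 to 62044 peaks. All 8 promoters checked for HEK293 lineage (PAX2, SIX2, WT1, SALL1, VIM, NEFL, NEFM and INA) had a peak in every library, while ALB, CD3E, CDH5, PECAM1, TYR, UMOD and AQP1, which mark other cell types, had none in any library. TTR and SLC34A1, from the same lists of other cell types, had a promoter peak in all 8.

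Most CpG sites of the human genome are methylated, and methylated cytosines are lost over evolutionary time, so CpG is rare except in CpG islands. Islands are mostly unmethylated and mostly mark promoters; those without an annotated promoter are called orphan islands, and many are enhancers, unannotated promoters or parts of developmental gene loci. Proteins with a CXXC zinc finger, such as KDM2B and CFP1, bind unmethylated CpG and bring Polycomb or histone H3 lysine methyltransferase complexes, several of which also touch the acidic patch.

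The sequences that follow show what the rule selects and carry the comparisons below. They are the central bases of hg38 regions, plus strand, 5′ to 3′, in lower case with every CpG in capitals. The region downstream of ZNF648 (chr1:182029745-182029945) had the highest lowest rank of all members and held 20 CpG in the stretch shown. The region upstream of NFE2L3 (chr7:25862499-25862699) was the strongest whose nearest TSS is that of a noncoding RNA and held 21. The region in the coding exon of ZNF771 (chr16:30418001-30418201) had the highest CpG ratio among members present in all 8 libraries and held 33. The region in YJEFN3 (chr19:19532235-19532435), whose ranks did not overlap between the groups, held 18. The 3 strongest distal regions outside the rule, near PPIAL4E, PCDH9 and TMEM217B, held 11, 0 and 12. The one with the fewest, near PCDH9 (chr13:66834916-66835116), is given for contrast and is not typical of them.
ZNF648: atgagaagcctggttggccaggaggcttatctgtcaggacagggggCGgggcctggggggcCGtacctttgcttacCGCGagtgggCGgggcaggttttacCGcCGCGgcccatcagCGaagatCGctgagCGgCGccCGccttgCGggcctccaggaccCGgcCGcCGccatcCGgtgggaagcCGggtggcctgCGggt
NFE2L3: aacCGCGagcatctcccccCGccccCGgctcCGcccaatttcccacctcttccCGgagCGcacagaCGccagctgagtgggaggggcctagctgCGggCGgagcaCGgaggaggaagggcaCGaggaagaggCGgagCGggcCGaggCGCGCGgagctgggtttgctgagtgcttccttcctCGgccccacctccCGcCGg
ZNF771: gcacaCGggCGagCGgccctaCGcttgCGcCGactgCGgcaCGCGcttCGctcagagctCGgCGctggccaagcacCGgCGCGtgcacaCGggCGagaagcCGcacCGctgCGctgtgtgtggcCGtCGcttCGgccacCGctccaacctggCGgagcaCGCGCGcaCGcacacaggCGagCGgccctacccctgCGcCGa
YJEFN3: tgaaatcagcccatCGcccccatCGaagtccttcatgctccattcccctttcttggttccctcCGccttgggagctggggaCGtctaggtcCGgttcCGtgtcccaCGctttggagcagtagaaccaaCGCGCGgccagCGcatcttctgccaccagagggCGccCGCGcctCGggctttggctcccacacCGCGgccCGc
PCDH9: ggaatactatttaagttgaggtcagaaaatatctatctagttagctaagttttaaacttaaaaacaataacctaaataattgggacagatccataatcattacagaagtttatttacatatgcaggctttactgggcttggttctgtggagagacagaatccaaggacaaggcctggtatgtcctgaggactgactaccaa

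The members were moderately to strongly CpG-rich. The median GC content was 64.7% (quartiles 59.5 and 69.7) and the median CpG observed/expected ratio 0.737 (quartiles 0.663 and 0.83). A member held a median of 38 CpG in its 501 bp window (quartiles 31 and 47), against 5 in the 69890 other regions more than 2000 bp from a TSS and 48 in the 12553 regions that passed the same sequence limits within 2000 bp of one. These values follow from the rule and are a description. Members were also wider: the merged region measured a median of 891 bp (quartiles 663 and 1090), against 556 bp in the other distal regions and 1240 bp in the CpG-rich regions near a TSS. The nearest TSS lay at a median of 11100 bp (quartiles 5210 and 24400), and 52 members lay more than 100 kb from one.

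At the distance limit, the nearest member stood at 2009 bp on chromosome 17 and was present in 1 library, and the nearest region left out stood at 1996 bp on chromosome 10 and was present in all 8. Of the 97 members between 2000 and 2500 bp, 75.3% were present in all 8 libraries, and of the 107 CpG-rich regions between 1500 and 2000 bp, 74.8% were. At the CpG ratio, 72.2% of 306 members between 0.6 and 0.65 and 64.4% of 275 excluded regions between 0.55 and 0.6 were present in all 8. At the GC limit, the shares were 74.4% of 133 members between 55 and 57% and 70.1% of 137 excluded regions between 53 and 55%. The widest gap across a limit was at the CpG ratio.

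Of the 1499 members, 838 (55.9%) were intergenic, 511 (34.1%) lay in an intron, 83 (5.54%) in a coding exon and 67 (4.47%) in another exon of a protein-coding or long noncoding RNA gene. Among the other distal regions 39.0% were intergenic, 57.3% intronic, 0.818% in a coding exon and 2.91% in another exon. Members lay inside a protein-coding gene in 496 cases, upstream of the nearest coding TSS in 551 and downstream of it in 452. They were assigned to 1308 genes, so most genes had 1. Chromosome 1 held 152 members and chromosome 19 held 116. On chromosome 19 they made up 10.7% of all distal regions, on chromosome 17 5.96% and on chromosome 13 0.73%.

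Most of these regions were open in every library. A region counted as present in a library if a peak of that list touched it. A region without a peak may be closed or may have gone undetected. All 8 libraries held 1154 members (77.0%), and 68 (4.54%) were in 1 library only. Between 25 and 79 members were present in each number of libraries from 2 to 7. The other distal regions had the reverse shape, with 26.6% in all 8 and 32.0% in 1, while 92.7% of the CpG-rich regions near a TSS were in all 8.

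**Figure D1:**
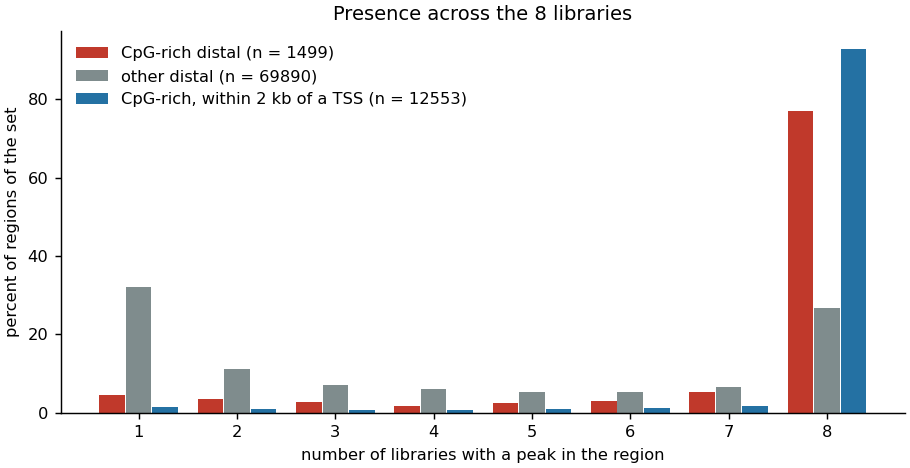
Number of libraries with a peak (x axis, 1 to 8) against the percent of each set (y axis), for the CpG-rich distal regions (n = 1499), the other distal regions (n = 69890) and the CpG-rich regions within 2 kb of a TSS (n = 12553). The bar at 8 libraries reaches 77.0%, 26.6% and 92.7% in that order.

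Strength was read from the deposited lists, in which each peak has a fold enrichment of its summit over local background and a p-value. Within each list the peaks were ranked by their strongest summit p-value and the rank written as a percentile, 100 being the strongest. Members were stronger than the other distal regions in every library. The percent of members present was 86.6 to 90.6 per library, against 47.8 to 55.9 of the other distal regions, a mean difference of 36.6 ± 1.66 percentage points (SD, n = 8 libraries). The median percentile of the members present was 70.9 to 73.2, against 37.7 to 38.6, a difference of 34.0 ± 0.683. The authors' median fold was 6.85 to 7.39, against 4.57 to 5.03, a difference of 2.42 ± 0.134. The median peak width was 698 to 746 bp, against 480 to 504 bp, a difference of 233 ± 10.7 bp. Each of the 4 differences was positive in 8 of 8 libraries (exact two-sided sign-flip test, n = 8, p = 0.00781 and adjusted over 4 p = 0.00781, the smallest this design allows). The 8 lists score the same regions of the same cell line, so this p shows only that each difference recurs from list to list. Members stayed below the CpG-rich regions near a TSS, whose median percentile was 86.2 to 87.5 and median width 1000 to 1090 bp. The groups do not enter this comparison.

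**Figure D2:**
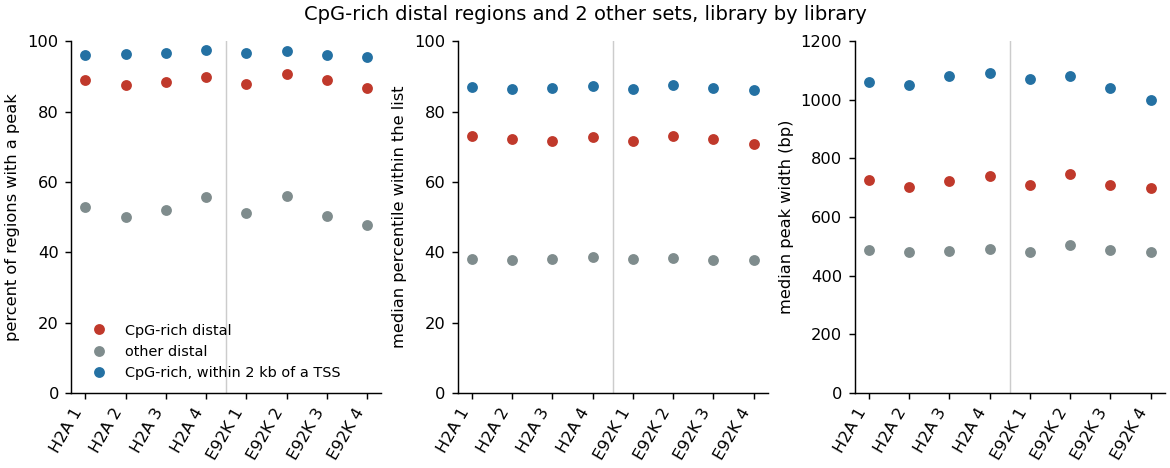
Percent of regions with a peak, median within-list percentile and median peak width in bp (y axes) in each of the 8 libraries (x axis; the grey line parts H2A from E92K) for 3 sets. In every library the CpG-rich distal regions (red) lie above the other distal regions (grey) and below the CpG-rich regions within 2 kb of a TSS (blue).

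The strongest members were defined by the lowest of their 8 percentiles. The region 28.2 kb downstream of the TSS of ZNF648, a zinc finger gene, had folds of 12.0, 12.0, 12.8 and 12.8 in H2A replicates 1 to 4 and 11.6, 12.4, 11.9 and 12.7 in E92K replicates 1 to 4. It ranked at the 99.4th percentile or above in each list. The region 64.6 kb downstream of STX11, which encodes a syntaxin of immune cells, had folds of 9.59, 9.12, 9.94 and 10.5 in H2A and 10.4, 9.01, 9.38 and 10.3 in E92K, and it also stayed at or above 99.4. For both regions the groups overlapped.

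The region upstream of NFE2L3, which encodes a bZIP transcription factor, lay 290.0 kb from that gene and 7.28 kb from the TSS of an unnamed long noncoding RNA gene. Its folds were 7.58, 8.29, 8.59 and 8.8 in H2A and 8.91, 8.17, 7.79 and 8.73 in E92K. The 10 strongest also included regions 33.4 kb upstream of DEGS2 (sphingolipid synthesis), 32.8 kb downstream of AZIN2 (polyamine regulation), 35.8 kb upstream of GLDC (glycine cleavage), 31.3 kb downstream of FOXL2 (an ovarian forkhead factor), 17.9 kb upstream of HAAO (tryptophan breakdown) and 26.2 kb downstream of BCL7C (a BAF remodeler subunit). Their mean folds ran from 9.66 to 13.7 and their lowest percentiles from 97.4 to 98.6.

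The last of the 10, 331.0 kb from SMN2, a survival motor neuron gene, had the highest folds of the 10: 22.3, 19.7, 22.8 and 21.1 in H2A and 24.1, 22.2, 21.5 and 25.1 in E92K. The means were 21.5 ± 1.37 and 23.2 ± 1.66 (SD, n = 4 each) and the folds overlapped. Its ranks among regions present in all 8 libraries did not overlap, at 96.0 to 98.1 in H2A and 98.5 to 99.3 in E92K. It measured 701 bp (chr5:70400970-70401670), had 76.2% GC and lies in the duplicated SMN locus. How reads that match several copies were placed is not given in the sources used here.

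Both the STX11 and the HAAO region hold a transfer RNA (tRNA) gene, which is read by RNA polymerase III from promoter elements inside the gene and has no place among the TSSs the rule used. The leucine tRNA gene TRL-TAA1-1 of RefSeq lies inside the STX11 region, and is shown with its flanks (chr6:144216527-144216649, plus strand, tRNA gene in capitals).
TRL-TAA1-1: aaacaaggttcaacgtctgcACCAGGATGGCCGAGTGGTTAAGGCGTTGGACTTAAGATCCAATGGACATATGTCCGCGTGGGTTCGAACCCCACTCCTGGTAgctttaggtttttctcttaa

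In all, 25 members (1.67%) had a RefSeq tRNA gene within 2000 bp, against 0.217% of the other distal regions, and in 23 of them at least 1 gene lay inside the region. Of the 25, 24 were present in all 8 libraries, the exception being a region named after OR2V1 that was absent from 1 H2A list. Their median percentile was 86.1 and their median width 1290 bp, against 68.3 and 891 bp over all members. They ranged widely. The region with TRK-CTT2-5 and that with TRP-CGG1-2, both beside OR1F1 on chromosome 16, had median percentiles of 55.9 and 58.4, and that with TRI-TAT2-1, upstream of HAAO, had 98.6. The region near KCTD2 on chromosome 17 held 3 arginine tRNA genes and measured 2190 bp.

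Other annotated starts outside the rule's list were also more frequent at members. A pseudogene start lay within 2000 bp of 101 members (6.74%, against 1.66% of the other distal regions), a small RNA start of 22 (1.47% against 0.911%), a start of a provisional class that GENCODE calls TEC of 14 (0.934% against 0.176%), and a microRNA hairpin of 6 (0.4% against 0.199%). Any of these or a tRNA gene was near 157 members (10.5% against 2.93%). RefSeq's promoter table placed a gene start within 2000 bp of 98 members (6.54% against 1.25%), which GENCODE's protein-coding and long noncoding starts did not. The 1342 members with no pseudogene, small RNA, TEC, microRNA or tRNA gene within 2000 bp had a median percentile of 68.2. Of these, 77.1% were in all 8 libraries, and those beside a start of RefSeq's promoter table were not removed. Members near a pseudogene were present less uniformly, with 67.3% of 101 in all 8. MIR132, beside HIC1 on chromosome 17, and MIR6815, in an intron of COL18A1 on chromosome 21, had their hairpin inside a member, each present in all 8 libraries.

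Short sequence motifs were also counted in members and in the other sets. Consensus letters were searched on both strands within 250 bp of the midpoint; a match is a sequence and not a bound site. The GC box GGGCGG, to which SP and KLF factors bind, occurred in 1142 members (76.2%), 10.2% of other distal regions, 88.6% of CpG-rich regions near a TSS and 23.4% of all regions. It consists of G and C with a CpG, so the rule favours it. The core of CTCF, the insulator protein, occurred in 91 members (6.07%), 5.93% of other distal regions, 1.1% of CpG-rich regions near a TSS and 5.34% of all regions. The CTCF share of members was close to that of the other distal regions, and their GC box share was nearer to that of the promoter set. No listed motif contains another.

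Other motifs with a CpG were also more frequent in members than in the other distal regions. The site GCGCATGCG of NRF1, an activator of respiratory genes, was in 2.33% of members against 0.0558% of other distal regions, with 0.545% over all regions. The E2F site TTTCCCGC, of cell cycle genes, was in 3.14% against 0.471% (all regions 0.991%), and the cAMP response element TGACGTCA in 1.6% against 0.338% (all regions 0.742%). The ETS site CCGGAAGT was in 1.47% against 0.332% (all regions 1.36%), far under the 7.09% of the promoter set. The E-box CACGTG was in 11.5% against 5.83% (all regions 6.98%). The YY1 site AAGATGGCG was in 0.6% against 0.2% (all regions 0.715%), and the ZBTB33 site TCTCGCGAG in 0.267% against 0.0143% (all regions 0.187%).

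Motifs without a CpG, many of them of enhancer factors, were mostly rarer in members. The AP-1 site TGANTCA was in 8.94% of members against 18.2% of other distal regions (all regions 15.9%). The site AGATAAG of the GATA factors was in 2.27% against 8.99% (all regions 7.57%), and the TEAD site GGAATG in 16.4% against 27.1% (all regions 25.1%). The T-box site AGGTGTGA was in 1.13% against 3.09% (all regions 2.71%), and the NFY site CCAATC in 11.2% against 14.4% (all regions 15.2%). The REST partial site TCAGCACC was in 2.94% against 2.52% (all regions 2.73%). All these shares follow in part from base composition, which the rule set.

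Presence also varied with the degree of CpG richness. In all 8 libraries were 72.0% of members with a CpG ratio of 0.6 to 0.7, 77.4% at 0.7 to 0.8, 82.5% at 0.8 to 0.9 and 82.0% at 0.9 or more. The median percentile was 63.9, 71.0, 72.5 and 67.5 in the same order. With GC content the share in all 8 was 69.2% at 55 to 60%, 76.4% at 60 to 65%, 79.4% at 65 to 70% and 84.1% above. Members more than 100 kb from a TSS had a median percentile of 47.0 with 61.5% in all 8, against 67.7 and 78.3% at 2 to 5 kb. Of the 91 members with a CTCF core, 86 (94.5%) were in all 8 with a median percentile of 77.6, of the 35 with an NRF1 site 32 (91.4%, median percentile 81.7), and of the 22 with an ETS site 21 (95.5%, median percentile 82.9). Shares under the 77.0% of all members were found with YY1 (66.7%), REST (68.2%), T-box (70.6%), GATA (73.5%) and TEAD (76.8%) sequences. The other motifs were above it. These are descriptions over regions, which are not replicates.

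**Figure D3:**
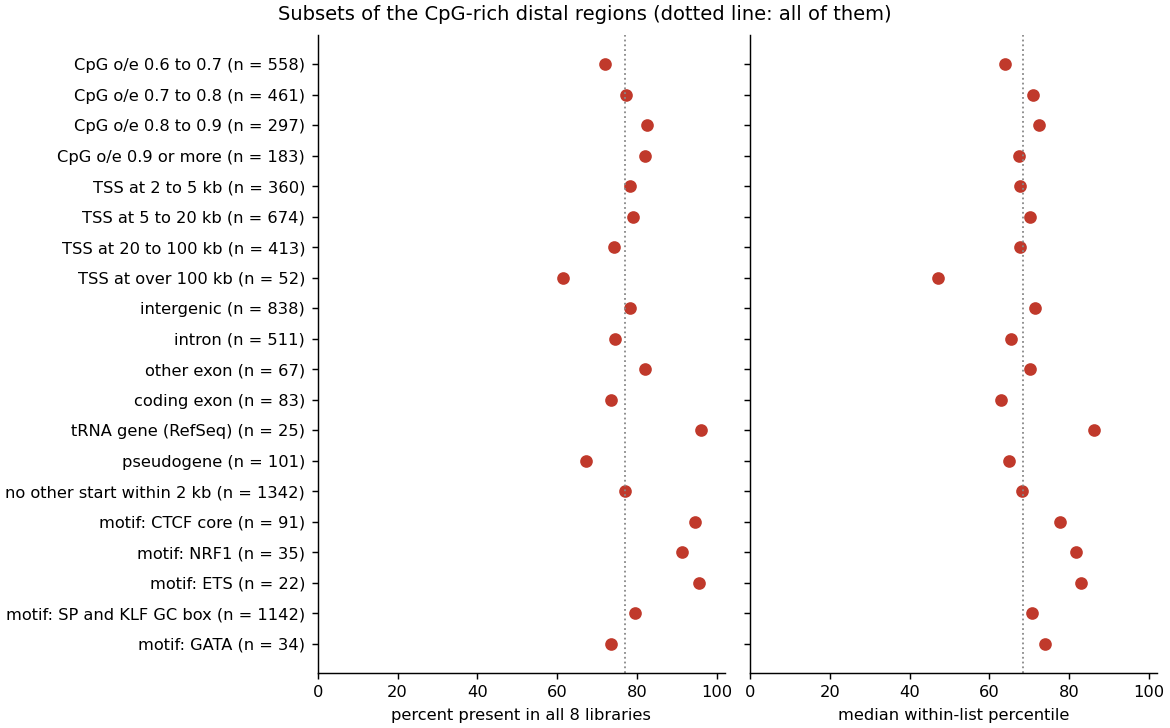
Percent of members present in all 8 libraries (left) and median within-list percentile (right) for subsets of the CpG-rich distal regions, with the number of members of each; the dotted lines mark all members, at 77.0% and 68.3. Members beside a tRNA gene and those with a CTCF, NRF1 or ETS sequence lie to the right of both lines, and members more than 100 kb from a TSS to the left.

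The genes with the most members are given here, and assignment to a gene had no limit on distance. BCOR, a corepressor that forms a Polycomb complex with the CXXC protein KDM2B, had 9 members. Of these, 5 lay inside the gene and the others 89.8 to 443.0 kb from its TSS. Present in all 8 libraries were 5 of the 9. One of these, in an intron 8.32 kb from the BCOR TSS (chrX:40105409-40109566), was the widest of all members present in every library at 4158 bp. Its folds were low for its width, 2.87, 2.87, 2.89 and 2.82 in H2A and 3.12, 2.71, 2.63 and 2.74 in E92K. The widest single peak there measured 2376, 2127, 2376 and 1422 bp in the H2A lists and 1210, 1161, 1130 and 1002 bp in the E92K lists, so these widths did not overlap between the groups. Such separation, looked at after the values were seen and without a test, occurred in 21 of the 1154 members present in all 8 with the wider peaks in H2A (1.82%), against 2.82% of all 36895 regions present in all 8. With the wider peaks in E92K it occurred in 25 members (2.17%), against 1.22% of all.

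PAX2, a paired-box factor of kidney and nervous system development whose promoter was open in every library, had 5 members, all intergenic and 5.7 to 80.0 kb upstream. All 5 were present in all 8 libraries, with median percentiles from 46.3 to 78.2. FOXD2, a forkhead factor gene, had 5 members 6.92 to 272.0 kb downstream, 3 of them in all 8. CXXC5 had 4, 2 of them in all 8, and the receptor phosphatase gene PTPRN2 had 4, all inside the gene and none in all 8.

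Counts by gene list follow as a description. In all, 1308 protein-coding genes were assigned a member, and no list was tested against the share over all such genes. Of 39 HOX genes, which pattern the body axis, 8 had a member, with 9 members in all and 8 of these in all 8 libraries. Of 102 other patterning homeobox genes 39 had a member, with 51 members, 39 of them in all 8 and a median of the members' percentiles of 69.2. Of 102 other developmental transcription factor genes 39 had a member, with 62 members, 47 in all 8 and a median percentile of 58.9. Over all members that median was 68.3.

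Examples were strong in both groups. In the coding exon of EVX2, a homeobox gene at the end of the HOXD cluster (chr2:176079561-176080681), folds were 10.0, 10.1, 10.7 and 12.0 in H2A and 11, 9.9, 11.8 and 11.2 in E92K. Upstream of EN1, a midbrain patterning gene, they were 10.5, 12.0, 11.6 and 12.5 in H2A and 11.9, 13.3, 11.6 and 11.4 in E92K. Around FOXL2 there was another strong member 11 kb from the TSS, in an exon of LINC01391, with mean folds of 11 ± 0.848 in H2A and 11.1 ± 0.302 in E92K (SD, n = 4 each). Groups overlapped at these 3. At 2 of the 3 strongest HOX regions, ranks among regions present in all 8 libraries did not overlap, in opposite directions. In the intron of HOXD3 they were 76.6, 76.4, 76.8 and 73.3 in H2A and 72.9, 69.8, 71.0 and 68.9 in E92K. Downstream of HOXB1 they were 53.4, 53.4, 48.4 and 49.6 in H2A and 59.9, 55, 60.7 and 66.3 in E92K. Neither passed adjustment over all regions, which with 4 libraries per group a region could pass only if most regions separated. Of all 36895 regions present in all 8 libraries, 2.63% had such separation toward H2A and 3.57% toward E92K. The 3 HOX regions were picked by strength, and ranks of the other HOX members are not given.

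Of 72 developmental signalling genes 14 had a member, 18 in all and 14 of these in all 8 libraries. The region 59.1 kb upstream of WNT7B, a Wnt ligand gene, ranked at the 95.5th percentile or above in each list, with folds of 11.2, 10.7, 10.5 and 10.8 in H2A and 11.7, 11.5, 11.2 and 11.5 in E92K. The region 15.9 kb upstream of WNT7A had mean folds of 9.08 ± 0.442 and 9.06 ± 0.758. Of 47 imprinted genes in the annotation 8 had a member, with 9 members and 8 in all 8.

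Among 26 genes for CXXC and DNA methylation proteins 3 had a member, 6 members in all, of which 3 were in all 8 libraries and the median percentile was 29.4. The highest of them was in an exon of KDM2B outside the coding part (chr12:121466994-121468078) with 81.2% GC and 74 CpG in the window. Its folds were 7.66, 8.59, 8.46 and 9.87 in H2A and 7.88, 8.58, 6.72 and 7.2 in E92K, with overlap. The region 28.3 kb downstream of CXXC5 had ranks of 38.2, 51.3, 40.7 and 40.4 in H2A and 20.8, 30.9, 37.0 and 24.5 in E92K, which did not overlap. It did not pass adjustment, which has the limit given for the HOX regions. The promoters of 25 of these 26 genes had a peak in all 8 libraries. Of 54 nucleosome and chromatin regulator genes 6 had a member, 8 in all and 5 in all 8. They include the region 88.8 kb upstream of ARID1B, a BAF subunit gene, with mean folds of 6.49 ± 0.519 in H2A and 6.29 ± 0.217 in E92K, and an intron of SETD1B, a histone methyltransferase gene, with 8.72 ± 0.622 and 8.29 ± 0.96.

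Of 66 potassium channel genes 14 had a member, 16 in all and 12 in all 8 libraries. An intron of KCNQ1, a heart and epithelial channel gene, had mean folds of 7.65 ± 1.01 in H2A and 8.27 ± 0.324 in E92K. Of 42 collagen genes 3 had a member, 4 in all, each present in all 8. The intron of COL2A1, the cartilage collagen gene, had mean folds of 6.68 ± 0.565 and 7.13 ± 0.46. Of 508 ZNF genes 44 had a member, 50 in all, 37 of them in all 8. The clustered protocadherin genes, 53 in all, had 0 members.

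The number of these regions differed between the groups by less than the spread between replicates. H2A replicates 1 to 4 had 1334, 1314, 1326 and 1346 members and E92K replicates 1 to 4 had 1318, 1358, 1332 and 1298. The means were 1330.0 ± 13.5 and 1326.5 ± 25.2 (SD, n = 4 each), and the lowest and the highest values were both E92K libraries. The difference of -3.5 regions had p = 0.857 (exact two-sided permutation test over 70 assignments, n = 4 each; adjusted p = 1.0 over 6 values).

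Since longer lists hold more of every kind of region, the members were also counted as a share of the distal regions present. The share was 3.49, 3.62, 3.51 and 3.34% in H2A and 3.55, 3.36, 3.64 and 3.74% in E92K, with means of 3.49 ± 0.115 and 3.57 ± 0.161% (SD). The groups overlapped and the difference of 0.0811 percentage points had p = 0.4 (exact permutation test, n = 4 each, adjusted p = 1.0). As a share of all regions present the means were 2.27 ± 0.0531 and 2.32 ± 0.0728% (exact permutation p = 0.371, adjusted 1.0).

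Peaks at members covered 1025027 ± 24600 bp in H2A and 1018271 ± 42000 bp in E92K (SD, n = 4 each; exact permutation p = 0.8, adjusted 1.0). The median peak width was 723 ± 14.2 bp in H2A and 716 ± 20.5 bp in E92K (exact permutation p = 0.543, adjusted 1.0). Ranked among the 36895 regions present in all 8 libraries, so that the ranked lists are of equal length, the members' median percentile rank was 61.0 ± 0.522 and 60.9 ± 0.664 (exact permutation p = 1.0, adjusted 1.0). None of the 6 differences passed the test, which does not show that the groups are alike.

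**Figure D4:**
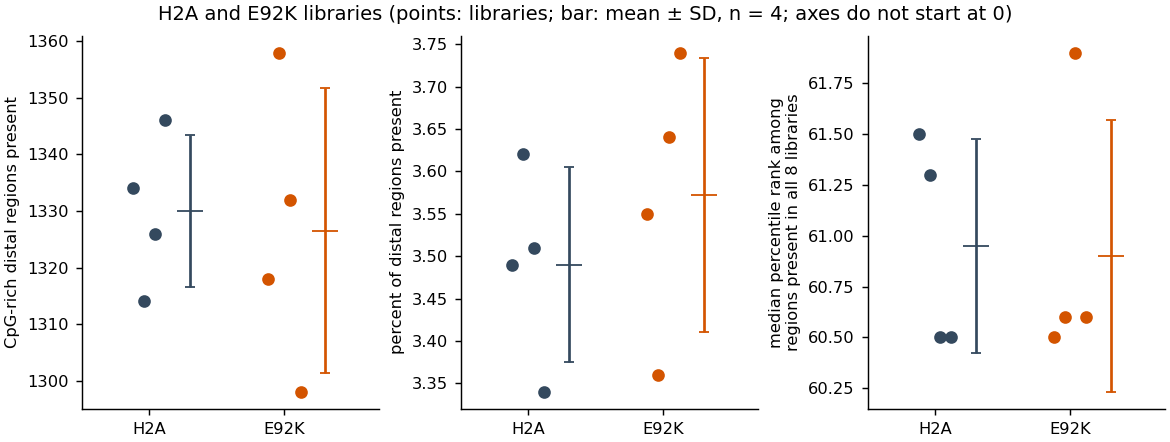
Members present, members as a percent of the distal regions present, and median percentile rank of members among regions present in all 8 libraries (y axes, not starting at 0), for 4 H2A and 4 E92K libraries. Points are libraries and bars the mean ± SD; the groups overlap in each panel.

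Split by position, the mean number present was 70.2 ± 2.5 in H2A and 69.8 ± 1.26 in E92K in coding exons, 61.8 ± 0.957 and 61.0 ± 0.816 in other exons, 445 ± 9.83 and 446 ± 11 in introns and 753 ± 4.97 and 749 ± 13.4 in intergenic space (SD, n = 4 each; exact permutation test, adjusted p = 0.914 for each of 4). For the 9 gene lists with at least 5 members every adjusted p was 1.0 (exact permutation test over 4 against 4). Patterning homeobox genes had 43.0 ± 0.816 members present in H2A and 43.5 ± 2.65 in E92K, and potassium channel genes 13.8 ± 0.957 and 13.5 ± 1.0.

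Among starts of another kind, a split added after the data had been seen, members beside a pseudogene had the widest gap. They numbered 83, 89, 90 and 87 in the H2A lists and 81, 83, 83 and 79 in the E92K lists, means of 87.2 ± 3.1 and 81.5 ± 1.91 (SD, n = 4 each). The lowest H2A library equalled the highest E92K libraries, and the difference of -5.75 regions did not pass (exact permutation p = 0.0857, adjusted p = 0.429 over 5 kinds). Members beside a tRNA gene numbered 24.8 ± 0.5 and 25 ± 0.0 (exact permutation, adjusted p = 1.0). How reads shared between a pseudogene and its parent gene were placed was not tested.

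Region by region, 0 of the 1499 members had a peak in 4 of 4 H2A libraries and in 0 of 4 E92K libraries, against 0.184% of all 96872 regions. In the other direction the count was also 0, against 0.139% of all regions. Two-sided Fisher exact tests per region over all regions gave 0 members with an unadjusted p under 0.05 and 0 after Benjamini-Hochberg adjustment. This test falls under 0.05 only at 4 of 4 against 0 of 4 libraries, so it restates the counts above. Over all 96872 regions 313 had an unadjusted p under 0.05, with a smallest p of 0.0286, and 0 passed adjustment. Adjustment could be passed only if most regions separated in this way, so it cannot decide about single regions.

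A weaker lean, a difference of at least 3 libraries, was seen in 4 members toward H2A (0.267%, against 1.38% of all regions) and in 8 toward E92K (0.534%, against 1.16%). The 12 are named here after their values were seen. Toward H2A they were regions at MUC4, CPEB2, LPA and ZNF722, and toward E92K at AQP7B, KCNH8, BCL6, KLB, ZNF622, UNCX, OPA3 and GRAMD4. In 10 of the 12 no −log10 q exceeded 10, where the lists begin at 2. At CPEB2, a translation regulator gene, the −log10 q was 2.17, 2.88 and 3.1 in H2A replicates 1 to 3, with no peak in the other lists. The coding-exon region of OPA3, a mitochondrial protein gene, stood higher, with 13, 12.7 and 12.1 in E92K replicates 1 to 3 and no peak in any other list. The intron of MUC4, a mucin gene, had 13.1, 14.3, 6.55 and 12.4 in H2A and 9.12 in E92K replicate 3 alone.

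Strength was compared by rank among regions present in all 8 libraries. Of the 1154 members there, 26 (2.25%) had all 4 H2A ranks above all 4 E92K ranks, against 2.63% of all 36895 regions, and 33 (2.86%) had the reverse, against 3.57%. The shares at members were thus near or under those of all regions. Among other distal regions they were 2.88% and 4.84%, and among CpG-rich regions near a TSS 2.08% and 1.94%. The 59 members had an unadjusted exact permutation p of 0.0286 each, the smallest possible, and 0 passed Benjamini-Hochberg adjustment over 36895 regions (smallest adjusted p 0.461). With that smallest p, adjustment can be passed only if most of the 36895 regions separate. The adjusted result therefore cannot decide about single regions.

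**Figure D5:**
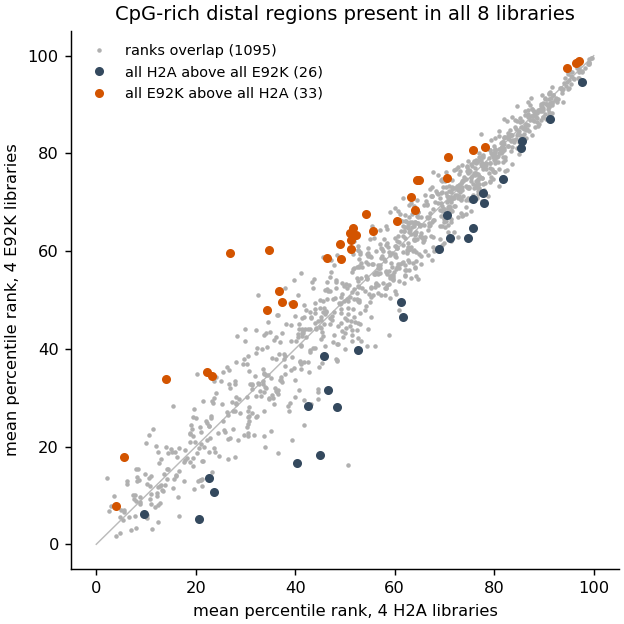
Mean percentile rank in the 4 H2A libraries (x axis) against that in the 4 E92K libraries (y axis) for the 1154 CpG-rich distal regions present in all 8; the line marks equality. The 26 regions with all H2A ranks above all E92K ranks and the 33 with the reverse are coloured; the other 1095 overlap.

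Ordered by the gap between the nearest ranks of the groups, the widest toward H2A were at YJEFN3, PIM3, BMP7 and PTGIS. By the difference of means the order is another, and the CXXC5 region above exceeds PTGIS. In the intron of YJEFN3, whose centre is printed above, the ranks were 51.3, 56.1, 43.3 and 42.7 in H2A and 24.3, 30.7, 24.0 and 33.6 in E92K, and the mean folds 5.38 ± 0.498 and 4.25 ± 0.38 (SD, n = 4 each). The region 10.3 kb downstream of PIM3, a serine/threonine kinase gene, ranked low throughout, at 28.5, 18.7, 17.4 and 17.7 in H2A and 7.43, 1.79, 9.39 and 1.8 in E92K. The region 81.3 kb downstream of BMP7, a growth factor gene of kidney and bone, had 68.6, 55.7, 57.8 and 64.4 in H2A and 48.3, 37.9, 51.2 and 48.8 in E92K. The region upstream of PTGIS, the prostacyclin synthase gene, had mean folds of 7.92 ± 0.619 and 6.75 ± 0.464.

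Wide gaps toward E92K were at HAS2, FGFBP3 and TEX22. The region 307.0 kb from HAS2, a hyaluronan synthase gene, had 0.512, 11.7, 46.5 and 48.7 in H2A and 67.7, 57.3, 55.5 and 58.3 in E92K. Its H2A libraries were thus split. At a q-value of 1e-05, with lists of equal length, or with 50% of the region covered, it was no longer present in all 8, so its ranks could not be compared. The same held at PIM3 for the q-value and the coverage. At HAS2 the mean fold was 6.77 ± 3.34 against 11.8 ± 1.36. FGFBP3, a growth factor binding protein gene, had 51.9, 55.9, 49.4 and 59.6 in H2A and 67.4, 64.8, 70.9 and 66.9 in E92K. In the intron of TEX22 the mean folds were 3.96 ± 0.205 and 4.7 ± 0.26. None of the regions named here passed adjustment, which with 4 libraries per group could not single out a few regions.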

How the data were processed

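ATAC-seq peak lists of 8 HEK293T libraries, 4 H2A and 4 E92K by their titles, were used. The members and all lists of genes and motifs were chosen with earlier results of these data known. The reads were placed on hg38, per the labels' design text. For the aligner, caller, Tn5 shift and duplicates, steps that affect peak width and number, nothing is given in the sources used here. The lists have no header and 10 columns in narrowPeak layout, with 1 list per sample. The deposited score is 10 times the −log10 q, rounded down. The deposited fold is a ratio of summit to local background, and the authors wrote p-value and q-value as −log10; each list begins at a −log10 q of 2. All are the authors' values and served to describe, rank or filter peaks inside 1 list. The deposited summit offset was not reported.

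Rows of 1 interval were joined as 1 peak with its strongest summit. Regions were merged, annotated with GENCODE version 44 (RefSeq for tRNA genes, microRNA hairpins and gene starts) and measured on hg38. Depth is not stated; a Poisson model of summit pileups recovered the fold and p of 99.5 to 99.9% of rows within 0.001 of the −log10 p and gave median pileups of 55 to 68 fragments at members, against 20 to 24 at other distal regions. At most 0.132% of intervals were identical between any pair of lists.

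Values per library were compared by exact two-sided permutation tests over 70 assignments, whose smallest p is 0.0286, with Benjamini-Hochberg adjustment within each family. Regions were tested over the whole table. Named regions are the 10 with the highest lowest percentile, up to 4 per direction with separated ranks, the 3 widest, the 3 with the highest CpG ratio, the 3 with the most CpG, and up to 3 per gene list. Not all of those are named in the text, and 1 region is not reported here. Statistics were tested on simulated data. Alternatives were other TSS sets, distances, sequence limits, windows, q-values, list lengths, overlaps, left-out libraries and a replicate block. Python 3.11.15, numpy 2.4.6, scipy 1.17.1, pandas 2.3.3 and pysam 0.24.0 were used.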

Additional observations from a re-analysis of the deposited data

Results flagged for a closer look

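In 11 of 48 groups of 4 libraries checked, 1 library stood apart from the other 3; chance flags about 1 in 20 groups, and small whole numbers are flagged by a difference of 1 region. In the E92K group, the median rank of members among regions present in all 8 libraries was 61.9 in replicate 3 and 60.5 to 60.6 in the others. Members at CXXC and DNA methylation protein genes numbered 4 in 1 E92K library and 5 in the others, and 6 in 1 H2A library and 5 in the others. Members at HOX genes numbered 8 in 1 library of each group and 9 in the rest. Members at developmental signalling genes numbered 17 in 1 H2A library and 16 in the others. Members at potassium channel genes numbered 12 in 1 E92K library and 14 in the others. Members beside a TEC start numbered 13 in 1 E92K library and 14 in 1 H2A library, and 12 in the rest. Members beside a microRNA hairpin numbered 5 in 1 E92K library and 6 in the others. Members beside a tRNA gene numbered 24 in 1 H2A library and 25 in the others.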

How the results depend on the processing

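The set ranged from 678 members (CpG ratio of at least 0.75) to 3125 (distance to gene starts alone, so that alternative promoters enter). Members exceeded the other distal regions in presence, percentile, fold and width under every alternative run, with exact p of 0.00781 to 0.0156. Of the 314 alternative values of the comparisons, 266 kept their direction or stayed near the count, and no group difference passed adjustment under any of them.

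Differences here are E92K minus H2A. That in members present changed sign with starts of every gene type (2.75), beyond 5000 bp (3.25), at a q-value of 1e-05 or less (4.0) and with equal list lengths (0.75), and ranged from -16.2 to 4.75 with 1 library left out, being above 0 without H2A replicate 4 (2.67) or E92K replicate 4 (4.75). The share of distal regions became -0.014 with equal list lengths and ranged from 0.0224 to 0.148 with 1 library left out. Base pairs covered ranged from -38000 to 8650 over all alternatives and from -25700 to 8650 with 1 library left out, and were higher in E92K without H2A replicate 4 (3030) or E92K replicate 4 (8650). The median rank became 0.286 beyond 5000 bp, 0.0642 at a CpG ratio of 0.75, 0.104 with equal list lengths and 0.0595 with 50% of the region covered, and ranged from -0.376 to 0.212 with 1 library left out (0.212 without H2A replicate 1, 0.0379 without H2A replicate 2, 0.05 without H2A replicate 4, 0.0951, 0.117 and 0.194 without E92K replicates 1, 2 and 4). The difference in members beside a pseudogene start kept its sign under every alternative run, from -6.75 with 50% of the region covered to -2.5 at a CpG ratio of 0.75 and -3.0 at a q-value of 1e-05 (adjusted p = 1.0 for the last 2, exact permutation), and ranged from -6.58 to -4.83 with 1 library left out (exact permutation, adjusted p from 0.143 to 0.571). Its unadjusted exact permutation p was 0.0286, the smallest possible, beyond 5000 bp, with 50% of the region covered and without H2A replicate 1. At these the adjusted p was 0.143, and under the other alternatives the unadjusted p was higher. With starts of every gene type no members lie beside a pseudogene start. The cause of the changes was not tested.

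Members in E92K libraries only numbered 2 with gene starts (0.064%, against 0.139% of all regions), 2 with equal list lengths (0.136% against 0.176%) and 1 with 50% of the region covered (0.0667% against 0.163%), and 0 to 3 with 1 library left out (all regions 0.23 to 0.34%). Those in H2A only numbered 1 with 50% covered (0.0667% against 0.202%) and 0 to 2 with 1 library left out (all regions 0.284 to 0.392%). Members with separated ranks numbered 65 toward E92K and 65 toward H2A of 2584 with gene starts (2.52% each), 15 and 11 of 556 at a CpG ratio of 0.75 (2.7 and 1.98%), and 21 and 16 of 835 over the whole region (2.51 and 1.92%), against 3.57 and 2.63% of all regions. With 1 library left out they numbered 42 to 53 toward E92K and 42 to 51 toward H2A, or 3.59 to 4.55% and 3.62 to 4.33%, where fewer samples separate more easily and the shares of all regions were 4.91 to 6.04% and 4.32 to 4.89%.

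Same-numbered libraries did not deviate together (r of -0.0722, 0.0168, -0.0179 and -0.0299 across regions). Whether they were prepared together is not given in the labels, and these values cannot decide it. With the replicate block (exact sign-flip permutation test over 4 pairs) the differences stayed at -3.5 regions, 0.046 and 0.0811 percentage points, -6760 bp, -7.5 bp and -0.0481, with p of 0.875, 0.625, 0.625, 0.625, 0.75 and 1.0 for the 6 values, and members beside a pseudogene differed by -5.75 (p = 0.125, adjusted 0.625). The smallest p this block allows is 0.125. No block could be fitted to counts of single regions. Read depth limits what is called: a missing peak is not a closed region.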

Other observations

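Among members present in all 8 libraries, the highest CpG ratio was at ZNF771, a zinc finger gene, in its coding exon (1.24, with 82 CpG in 501 bp). Its folds were 5.81, 7.11, 6.31 and 6.32 in H2A and 7.12, 6.13, 7.07 and 6.92 in E92K. A region downstream of PLPP2, a lipid phosphatase gene, had a ratio of 1.12, and an intron of RAI1 had 1.1, with median percentiles of 68.8 and 52.8. An intron of an unnamed protein-coding gene, ENSG00000254553, also held 82 CpG and had a GC content of 79.0%. The region whose midpoint lay 2.26 kb upstream of TLE3, a Groucho corepressor gene, was 2998 bp wide. The rule tests the midpoint, and part of this region lay within 2000 bp of the TSS. Its peaks measured 2352, 2451, 2483 and 2202 bp in H2A and 2667, 2982, 2977 and 1328 bp in E92K.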
